A study of Mus musculus with 3 samples.

Results

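The genes described here were 43 mouse genes for molecular chaperones and the unfolded protein response, chosen by name among 55536 annotated genes. A further row shared the name Ddit3, had a second identifier and held 0 counts, so the 43 names matched 44 rows. The genes fell into 6 role groups: 14 of protein folding in the endoplasmic reticulum (ER), 4 sensors and factors of the unfolded protein response, 4 of ER-associated degradation, 11 of the cytosolic heat shock system, 3 mitochondrial chaperones and 7 subunits of the chaperonin TRiC. PolyA-selected RNA was sequenced from regulatory T cells with past exposure to inflammation, taken as primary cells from 1 male adult mouse of 16 weeks. Such cells express CD4, need the transcription factor Foxp3 and hold other immune cells in check. The strain, Foxp3GFP-DTRCD4CreERT2R26tdTomato, combines GFP and the diphtheria toxin receptor at Foxp3, a tamoxifen-dependent Cre whose name places it at Cd4, and a tdTomato reporter at Rosa26. No source used here gives the treatment of the animal. The 3 libraries are technical replicates 1, 2 and 3 of 1 biological replicate, and they form 1 group. Levels are therefore described within this group, every SD is over these 3 libraries (n = 3), and the tests compare libraries with each other, not animals or conditions.

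Chaperones bind unfolded or partly folded proteins and let them fold, often in cycles of ATP use. When unfolded proteins gather in the ER, the sensors Ern1 (IRE1), Atf6 and Eif2ak3 (PERK) start the unfolded protein response, which raises ER chaperones and the machinery that returns misfolded proteins to the cytosol for degradation. In the cytosol the transcription factor Hsf1 does the same for heat shock proteins. Activated T cells make cytokines and receptors in the ER and are known to use this response.

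Promoter sequences are shown first, because the response elements in them were unevenly spread over the role groups. RefSeq promoters, from 250 bases before to 50 bases after a start on build GRCm38.p6, were matched by symbol for 35 of the 43 genes, giving 42 promoters among 32851 in all. The ER stress response element, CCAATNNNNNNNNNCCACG on either strand, is known to be read by NF-Y at its CCAAT end and by Atf6 at its CCACG end. It stood in 39 promoters of all genes (0.119%) and in 8 of the 42 members' promoters (19.1%). Of these 8, 7 belonged to the 13 promoters of ER folding genes and 1 to Syvn1, the ubiquitin ligase of ER-associated degradation. Hsp90b1 held 2 copies. No promoter of the cytosolic, mitochondrial, TRiC or sensor groups held a match. Those promoters covered 7 of 11 cytosolic genes, 2 of 3 mitochondrial, 6 of 7 TRiC and 3 of 4 sensor genes. The matches are aligned below in the reading direction of the element, with the element in capitals and 5 flanking bases on each side, each with its coordinates and the strand shown.
Hspa5 (chr2:34772020-34772048, + strand): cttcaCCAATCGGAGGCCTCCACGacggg
Calr (chr8:84847070-84847098, + strand): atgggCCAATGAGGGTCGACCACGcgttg
Hsp90b1, far copy (chr10:86705633-86705661, - strand): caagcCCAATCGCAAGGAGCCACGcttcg
Hsp90b1, near copy (chr10:86705528-86705556, + strand): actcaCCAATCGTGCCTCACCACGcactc
Canx (chr11:50325795-50325823, - strand): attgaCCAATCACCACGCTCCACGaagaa
Pdia6 (chr12:17266486-17266514, + strand): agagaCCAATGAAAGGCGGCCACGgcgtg
Dnajc3 (chr14:118937822-118937850, + strand): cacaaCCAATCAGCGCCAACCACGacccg
Creld2 (chr15:88819515-88819543, - strand): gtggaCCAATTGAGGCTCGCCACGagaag
Syvn1 (chr19:6046527-6046555, + strand): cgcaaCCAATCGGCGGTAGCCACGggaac

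The elements lay from position -212 in Hsp90b1 to -44 in Syvn1, counted from the start at the end of the match farther upstream. Only 250 bases before to 50 bases after a start were searched, so closeness to the starts was set by that range. A shorter form with the same CCACG end, the ER stress response element II (ATTGG, any base, CCACG, on either strand), was added after the first results were seen. It stood in 12 of all promoters (0.037%) and in the promoters of 2 members. They are Herpud1, an adaptor of ER-associated degradation, and Dnajb11, a co-chaperone of Hspa5. Its match in Dnajb11 began at position 8, after the start.
Herpud1 (chr8:94386368-94386396, + strand): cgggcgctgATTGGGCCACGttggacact
Dnajb11 (chr16:22857843-22857871, + strand): ccggcggcgATTGGCCCACGcctggctgc

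The CCAAT box alone is common, at 37.4% of all promoters, and stood in each of the 13 ER folding promoters and each of the 4 of ER-associated degradation. Every match to the ER stress response element contains one. The core of a further element of the response, TGACGTGG, stood in 0.676% of all promoters and in none of the members'.

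The heat shock element bound by Hsf1 alternates GAA and TTC blocks. With 3 blocks, GAANNTTCNNGAA, it stood in 0.603% of all promoters and in those of Hspd1, Hspe1 and Hsph1. Hspd1 and Hspe1 encode the mitochondrial chaperonin and its cap and are transcribed away from each other. RefSeq gives 2 starts for Hspd1, and 1 of them lies within Hspe1. The 215 bases between the other and the Hspe1 start are shown with the overlapping matches in capitals, followed by the match in Hsph1, a nucleotide exchange factor of cytosolic Hsp70, which lies after the start.
Hspd1 to Hspe1 (chr1:55087933-55088147, + strand): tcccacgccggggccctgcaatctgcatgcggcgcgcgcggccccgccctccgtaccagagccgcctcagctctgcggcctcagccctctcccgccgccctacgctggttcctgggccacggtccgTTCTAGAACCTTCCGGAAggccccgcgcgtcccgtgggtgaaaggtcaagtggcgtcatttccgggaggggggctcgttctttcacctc
Hsph1 (chr5:149636280-149636308, + strand): actgaggaGAACTTTCCAGAAtctgcagc

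The first 2 blocks alone (GAANNTTC), which the longer element contains and which were searched after the first results were seen, stood in 7.86% of all promoters. Their matches were in 6 of 11 promoters of the cytosolic group, from Bag3, Dnaja1, Hspa1a, Hspa1b and Hsph1, in 2 of 3 of the mitochondrial group and in 1 of 8 of TRiC (Cct2). The 11 cytosolic promoters belong to 7 genes, and Hsph1 was counted with 2 promoters. In the mitochondrial group Hspd1 and Hspe1 held the same site, in the stretch they share. The ER folding genes had none. A match describes these letters only, and no binding was measured. The genes were chosen by name for these pathways, so the shares beside all promoters are a description and not a test.

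**Figure D1:**
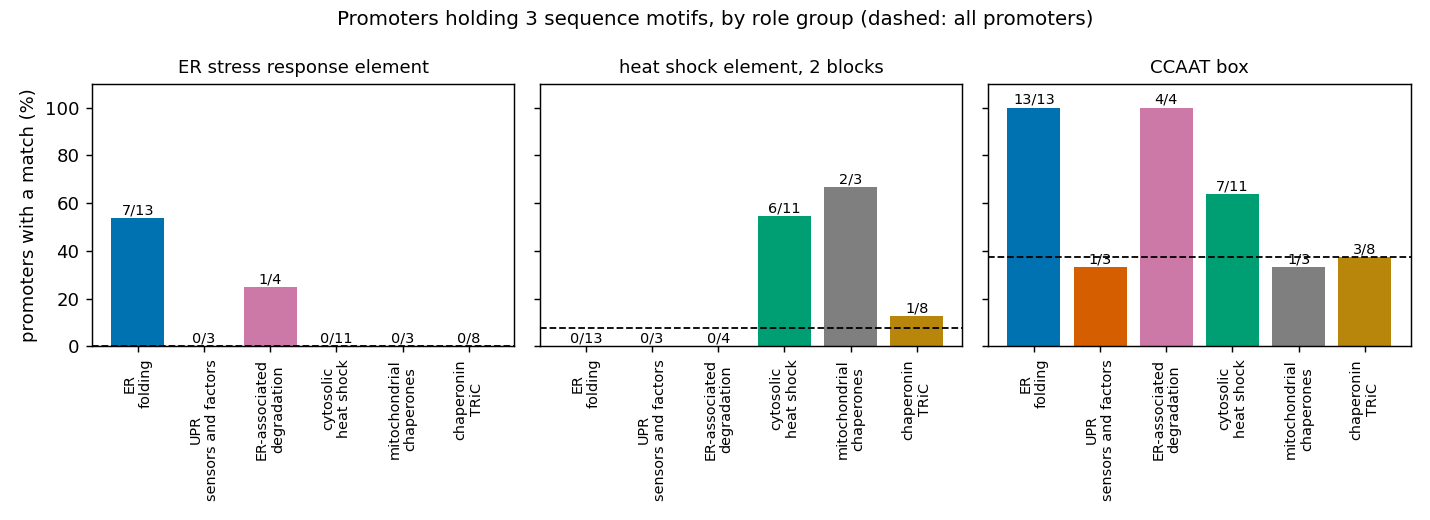
Percent of RefSeq promoters that held each of 3 motifs on either strand, by role group of the genes, with the number of promoters above each bar and the share of all 32851 promoters as a dashed line. The ER stress response element was in 7 of 13 ER folding promoters, and the heat shock element of 2 blocks was in 6 of 11 cytosolic promoters and in no ER folding promoter. The 11 cytosolic promoters belong to 7 genes.

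All 43 genes were detected, that is at 1 TPM (a transcript abundance scaled for length and to the same sum in each library) or more in each library, beside 47.4% of protein-coding genes. The deposited TPM lay above its own deposited credible interval for 36, 36 and 30 of the 43 genes in libraries 1, 2 and 3. It was at a median of 1.11, 1.12 and 1.12 times the interval's midpoint, so the absolute scale of TPM is uncertain by about that factor. The share over all genes was not counted. Some genes outside the 43, such as Trac and Cd3e, also lay above their intervals in each library. At 10 TPM there were 36 of the 43 (83.7%), beside 31.1% of protein-coding genes, and at 100 TPM 21 of the 43 (48.8%), beside 6.63%. The role groups stood at different heights. The median TRiC subunit was at 267 ± 14.1 TPM, the median ER folding gene at 140 ± 20.0 TPM and the median mitochondrial chaperone at 134 ± 11.98 TPM. Medians were 93.4, 77.9 and 35.4 TPM in libraries 1, 2 and 3 in the cytosolic group, 54.3 ± 18.0 TPM in ER-associated degradation and 20.4 ± 7.17 TPM among the sensors and factors. For comparison, the median detected protein-coding gene was at 25.6 ± 3.29 TPM, so only the sensors and factors had a median below it.

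**Figure D2:**
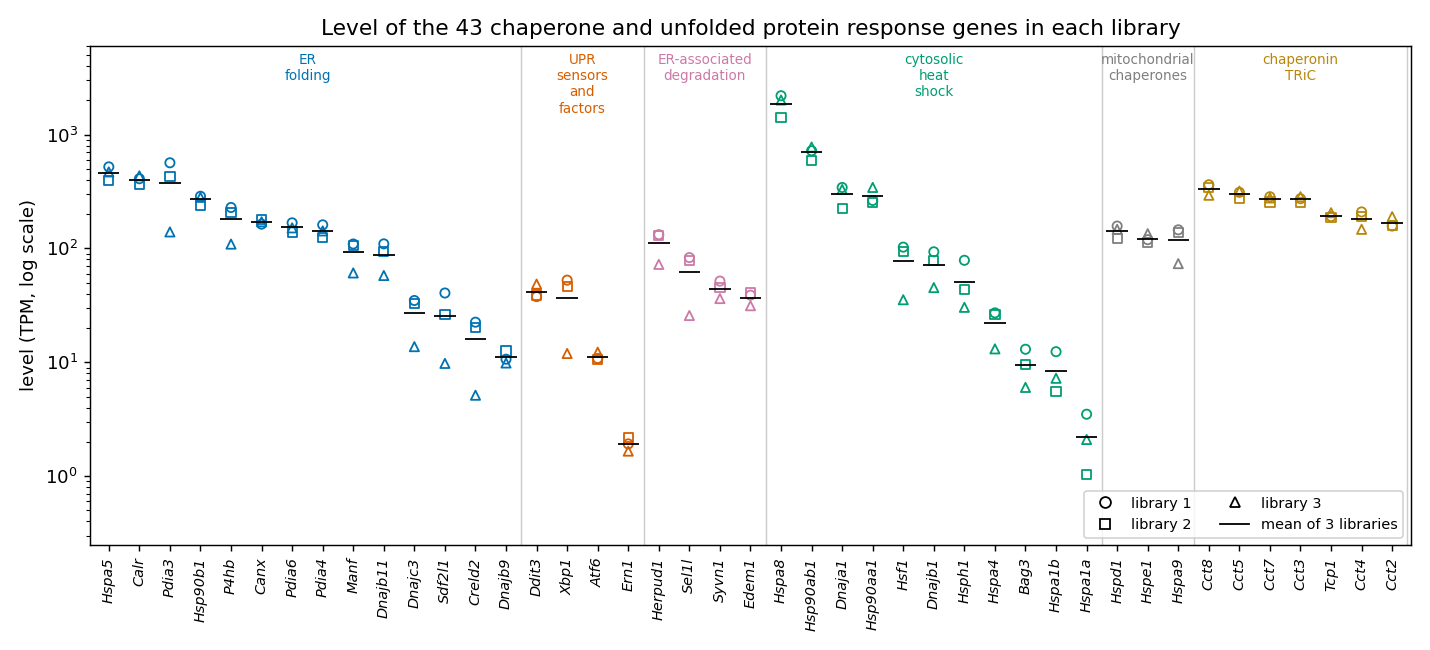
Level of each of the 43 genes in TPM (log axis) in libraries 1, 2 and 3, with the mean as a line, by role group and in falling order of the mean. Hspa8 is highest at 1871 TPM and Ern1 lowest at 1.92 TPM, the TRiC subunits span 168 to 332 TPM, and library 3 lies below the others for genes such as Pdia3, Creld2, Sdf2l1 and Xbp1.

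Among ER folding genes, Hspa5 (BiP), the ER Hsp70 that also holds the stress sensors inactive, was highest on average, at 520, 396 and 470 TPM in libraries 1, 2 and 3. In libraries 1 and 2 Pdia3 stood above it. Its promoter stretch before the start (chr2:34771840-34772089, + strand) is shown with the ER stress response element in capitals.
Hspa5 promoter: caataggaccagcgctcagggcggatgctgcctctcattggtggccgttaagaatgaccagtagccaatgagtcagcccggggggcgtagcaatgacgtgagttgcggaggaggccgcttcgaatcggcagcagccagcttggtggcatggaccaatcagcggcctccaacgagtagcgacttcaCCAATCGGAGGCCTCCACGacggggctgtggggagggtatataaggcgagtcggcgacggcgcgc
Calr, the soluble calcium-binding lectin chaperone, was at 409, 361 and 434 TPM, while its membrane-bound partner Canx was at 163, 179 and 171 TPM. Calr exceeded Canx in each library, by 1.22 ± 0.18 on the log2(TPM + 1) scale used for all pairs. A pair was called different where the sign was the same in all libraries and the mean difference was over 1 and over 2 SD, and 17 of 29 pairs were. In the second gene table, which is not scaled for length, Calr over Canx was -0.11. Expected counts of the first table are not scaled for length either. They were 10013, 8043 and 9472 for Calr against 7852, 7541 and 7472 for Canx, so Calr was higher there too. The cause of the turn was not tested. Hsp90b1 (Grp94), the ER Hsp90, stood at 287, 241 and 281 TPM. Hspa5 exceeded it in each library by 0.77 ± 0.07, which is under the limit for a call.

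The protein disulfide isomerases, which form and shuffle disulfide bonds, were uneven across libraries. Pdia3, which acts on glycoproteins with Calr and Canx, was at 565, 428 and 140 TPM, the highest of the ER folding genes in libraries 1 and 2. P4hb, the founding member of the family, was at 229, 208 and 109 TPM. Both were lowest in library 3. Pdia4 at 161, 125 and 142 TPM and Pdia6 at 168, 139 and 152 TPM were lowest in library 2, and these 2 differed from each other by only 0.10 ± 0.05. Pdia3 exceeded Pdia4 by 1.80 and 1.77 in libraries 1 and 2 and did not in library 3, at -0.03, so no call was made for that pair.

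Of the J-domain co-chaperones that drive the ATP use of Hspa5, Dnajb11 was at 110, 94.3 and 57.8 TPM, Dnajc3 at 34.9, 33.1 and 13.7 TPM and Dnajb9 at 10.7, 12.6 and 9.86 TPM. Dnajb11 exceeded Dnajb9 by 2.83 ± 0.41 and Dnajc3 by 1.70 ± 0.27, both calls. In CPM of the second table, the latter was 0.75 ± 0.50, no call. The 3 small ER proteins of the list, which are classical targets of the response in other cells, were Manf at 109, 107 and 60.9 TPM, Sdf2l1 at 40.6, 26.1 and 9.78 TPM and Creld2 at 22.5, 20.2 and 5.14 TPM. Each was lowest in library 3, where Creld2 rested on 81 expected counts against 386 and 318 in libraries 1 and 2.

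Among the sensors and factors, Ern1, the kinase and endonuclease that splices Xbp1 mRNA, was the lowest of the 43 genes, at 1.92, 2.19 and 1.66 TPM. Atf6, a membrane-bound factor freed by cleavage in the Golgi, was at 10.8, 10.6 and 12.3 TPM, and exceeded Ern1 by 2.06 ± 0.23. Ddit3 (CHOP), a factor of the late and pro-death phase, was at 37.7, 38.9 and 48.6 TPM. Its gene overlaps Mars on the opposite strand (61.8 TPM on average), and no source used here says whether the counting used strand. Of the 841 windows of 50 bases in its most abundant transcript, 75 (8.92%) also occur in other genes on either strand. The second Ddit3 entry holds 56 of these. Windows cover annotated transcripts only, and the part of Mars reads in the level of Ddit3 was not tested. Xbp1, the factor that Ern1 activates, was at 52.7, 46.5 and 11.95 TPM. Xbp1 thus stood above Ddit3 in libraries 1 and 2 and below it in library 3.

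Ern1 removes 26 bases from Xbp1 mRNA outside the spliceosome. The stretch is shown with those bases in capitals (chr11:5524279-5524304, + strand, GRCm38), as read from the GENCODE M21 transcript Xbp1-201.
Xbp1-201: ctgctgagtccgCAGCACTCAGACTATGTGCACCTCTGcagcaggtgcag
The 26 bases leave a remainder of 2 when divided by 3. The unspliced reading frame has 267 residues and the spliced frame 371, and they share the first 161. No annotated Xbp1 transcript had an intron shorter than 300 bases, so the spliced form is not among the quantified transcripts and its share was not measured. Xbp1-201 held 84.7%, 80.5% and 87.5% of the gene's TPM, and 92.1 ± 2.09% of its expected counts. The other 3 transcripts each held under 8% of TPM on average, led by 1 annotated as a retained intron, with 7.19 ± 3.54%.

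The group of ER-associated degradation was led by Herpud1 at 132, 131 and 72.4 TPM. Sel1l, the scaffold of the ligase complex, was at 83.1, 78.2 and 25.8 TPM, and its partner ligase Syvn1 (Hrd1) at 51.7, 45.4 and 36.3 TPM. Sel1l exceeded Syvn1 by 0.68 and 0.77 in libraries 1 and 2 and fell short of it, at -0.48, in library 3. Edem1, a lectin that picks glycoproteins for degradation, was at 38.9, 40.7 and 31.4 TPM. All 4 genes were lowest in library 3.

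The cytosolic group had the widest span. Hspa8, the constitutive Hsp70, was at 2192, 1409 and 2012 TPM and ranked 42 among 22028 protein-coding genes. The stress-inducible Hsp70 genes were far lower, Hspa1b at 12.4, 5.50 and 7.24 TPM and Hspa1a at 3.50, 1.04 and 2.10 TPM. Hspa8 exceeded Hspa1a by 9.23 ± 0.27 and Hspa1b by 7.68 ± 0.30. Each of the 3 genes has near-identical copies. Of the 50-base windows of their most abundant transcripts, 86.4% in Hspa8, 66.3% in Hspa1a and 62.3% in Hspa1b also occur in transcripts of other genes, so how their reads were divided is uncertain. Hspa1a and Hspa1b are neighbours on chromosome 17, and their promoters differ at 3 of the 250 bases before the start. Both stretches are shown with the differing bases in capitals.
Hspa1a (chr17:34972157-34972406, - strand): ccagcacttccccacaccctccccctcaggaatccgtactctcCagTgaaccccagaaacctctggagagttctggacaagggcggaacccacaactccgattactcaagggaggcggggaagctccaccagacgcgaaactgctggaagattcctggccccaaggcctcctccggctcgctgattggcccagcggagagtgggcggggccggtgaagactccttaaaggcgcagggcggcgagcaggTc
Hspa1b (chr17:34959239-34959488, - strand): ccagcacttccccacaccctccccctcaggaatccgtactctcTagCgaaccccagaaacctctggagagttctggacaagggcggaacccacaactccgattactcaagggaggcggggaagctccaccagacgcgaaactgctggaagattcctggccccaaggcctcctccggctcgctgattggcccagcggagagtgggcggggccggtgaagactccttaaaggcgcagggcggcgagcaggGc

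Hsp90ab1, the constitutive cytosolic Hsp90, was at 721, 595 and 777 TPM, and the inducible Hsp90aa1 at 264, 252 and 343 TPM. Hsp90ab1 exceeded Hsp90aa1 by 1.29 ± 0.14 and the ER form Hsp90b1 by 1.36 ± 0.09. For Hsp90aa1, 65.6% of windows are shared, and in CPM of the second table, which held 8.1% of its count in library 1, the ratio of Hsp90ab1 to Hsp90aa1 was 3.17 and that to Hsp90b1 was 0.03. The J-domain protein Dnaja1 was at 343, 224 and 329 TPM and Dnajb1 at 93.4, 77.9 and 45.3 TPM. For Dnaja1, 83.2% of windows are shared, among others with the processed pseudogene Gm15542, which was itself given 130, 75.1 and 119 TPM. Both Dnaja1 and Gm15542 were lowest in library 2.

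The exchange factors of the cytosolic system varied between libraries. Hsph1 (Hsp110) was at 78.7, 43.3 and 30.4 TPM, Hspa4 at 27.2, 26.2 and 13.1 TPM and Bag3, which links Hsp70 to small heat shock proteins and autophagy, at 13.0, 9.60 and 6.02 TPM. Hsph1 and Bag3 fell in the same order, library 1 above 2 above 3, while Hspa4 was much the same in libraries 1 and 2. The regulator Hsf1 was at 103, 93.4 and 35.4 TPM, lowest in library 3. In CPM of the second gene table, without length scaling, Hspa8 was lower than Hspa5 by a log2 ratio of -2.80, lower than Hspa9 by -1.81, and Dnaja1 over Dnajb1 was -1.57, against ratios above 0 from TPM. Hspa8 over Hspa4 was -0.65, -0.73 and 0.64 in libraries 1, 2 and 3 there, with no common direction. That table held 550 counts for Hspa8 in library 1, which is 1.3% of its 41498 expected counts, and 4.9% for Dnaja1. Expected counts in library 1, also without length scaling, were 16412 for Hspa5 and 5543 for Hspa9, both below Hspa8. They were 6978 for Dnaja1 against 3570 for Dnajb1.

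The mitochondrial chaperones were close to each other. Hspd1 was at 157, 122 and 147 TPM, its partner Hspe1 at 119, 112 and 135 TPM and the mitochondrial Hsp70, Hspa9, at 146, 138 and 73.5 TPM. Hspe1 over Hspd1 was -0.21 ± 0.16 and Hspa9 over Hspd1 was -0.31 ± 0.61, neither a call, and Hspa9 was the only 1 of the 3 with its lowest value in library 3. Transcripts of other genes share 44.8% of the windows of both Hspd1 and Hspe1, and the 2 genes overlap on opposite strands.

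The 7 TRiC subunits, which form the ring that folds actin and tubulin, lay between Cct2 at 168 ± 18.7 TPM and Cct8 at 332 ± 35.6 TPM. With Cct6a, the subunit outside the list, at 257 ± 22.3 TPM, the highest of the 8 was 1.97 times the lowest, and the coefficient of variation among the 8 was 25.1%. Cct5 was at 311, 274 and 319 TPM, Cct3 at 273, 251 and 284 TPM, Cct7 at 284, 256 and 277 TPM, Tcp1 at 191, 187 and 206 TPM, and Cct4 at 209, 190 and 147 TPM. None of the 3 pairs of subunits compared, Cct8 over Tcp1, Cct5 over Cct2 and Cct3 over Cct7, met the limit for a call. These subunits make up complexes with 1 of each kind per ring, and the ratio above is that of their mRNA. For Cct7 and Cct8, the transcript with the largest share, 39.0 ± 2.96% and 44.5 ± 0.73% of TPM, is annotated as a target of nonsense-mediated decay, whereas the leading transcript of the other 41 genes is annotated as protein-coding.

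The libraries were then compared with each other, by a Pearson chi-square test of expected counts against Poisson sampling over the 14877 genes whose mean count reached 10. Depth was 20996194, 18456254 and 17535472 expected counts in libraries 1, 2 and 3. All 43 genes differed between libraries (adjusted p under the threshold of 0.05), beside a background of 63.9% of tested genes. The test calls more genes at high counts. Where the mean count reached 1000 the background was 88.0%, and all 31 members there were called. With a trend on local GC content removed, 42 of 43 were called beside 58.6%, and Atf6 was lost. Without library 3, 27 (62.8%) were called beside 30.2%, and where the mean count reached 1000, 22 of 34 (64.7%) beside 50.2%. Spread beyond counting was 0.278 as a coefficient of variation over all tested genes, so technical libraries differed well beyond Poisson sampling.

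Between libraries 1 and 2 the genes with the largest differences were Hspa1a, Hspa1b and Hsph1, all higher in library 1. When the libraries were tested with each other, 25 of 43 genes (58.1%) were higher in library 1 beside 16.5% of 14868 tested genes, and 2 (4.65%), Canx and Ern1, were lower beside 13.7%. Among genes whose mean count reached 1000, 21 of 34 (61.8%) were higher beside 33.8%, and 1 of 34, Canx, was lower beside 16.4%. By role group, 8 of 11 cytosolic genes, 9 of 14 ER folding genes and 5 of 7 TRiC subunits were higher in library 1. So were 1 of 4 sensors and factors, 1 of 4 genes of ER-associated degradation and 1 of 3 mitochondrial chaperones. The median difference was 0.40 in log2 in the cytosolic group, 0.16 in ER folding and 0.11 in TRiC, against 0 over all tested genes. It was -0.06 in the sensors and factors and 0.05 in both ER-associated degradation and the mitochondrial chaperones.

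Hspa1a was 1.71 higher in log2 in library 1 (adjusted p 2.7e-10), on 133 and 36 expected counts, and Hspa1b was 1.14 higher (adjusted p 1.5e-18), on 445 and 181. Only 0.6% and 1.2% of tested genes had a larger difference than these 2. Hsph1 was 0.74 higher, Sdf2l1 0.60, Hspa8 and Dnaja1 each 0.57, and Bag3 0.40, whereas Dnajb1 was 0.22 higher and Hsp90aa1 was at 0.04, no call. The second gene table, which holds whole counts for GENCODE M4, gave fewer calls. There, 6 of 42 tested genes (14.3%) were higher in library 1 beside 5.39% of 10969 genes, and 1, Canx, was lower beside 5.06%. Canx held 2344 and 2341 counts there in libraries 1 and 2, so its difference of -0.14 came with the scaling for library size. The 6 were Hspa1b at 1.45, Hsph1 at 0.61, Bag3 at 0.38, Sdf2l1 at 0.37, Dnaja1 at 0.36 and Pdia4 at 0.15. By role group, 4 were cytosolic, 2 were ER folding genes and none was a TRiC subunit. Of the 25 genes higher in the first table, 24 were tested in the second and 8 of these were not higher there.

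Several genes with high counts had a smaller or opposite difference in the second table. Hspa5 was 0.35 higher in library 1 in the first table and at -0.04 in the second, Hsp90ab1 went from 0.30 to -0.09, Pdia3 from 0.34 to -0.07, Calr from 0.16 to -0.05 and Hspa8 from 0.57 to 0.02. The second table held 50.5% of the first table's count for the median gene with 100 to 1000 counts in library 1, but 22.4% for the median gene with over 5000. For Hspa5 it held 23.3%, for Hsp90ab1 18.7% and for Pdia3 20.1%, against 61.9% for Hsph1 and 67.4% for Bag3. A low share did not always go with a lost difference, since it held 4.9% for Dnaja1 and 13.0% for Hspa1b, both still called. Why the tables part at high counts was not tested.

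**Figure D3:**
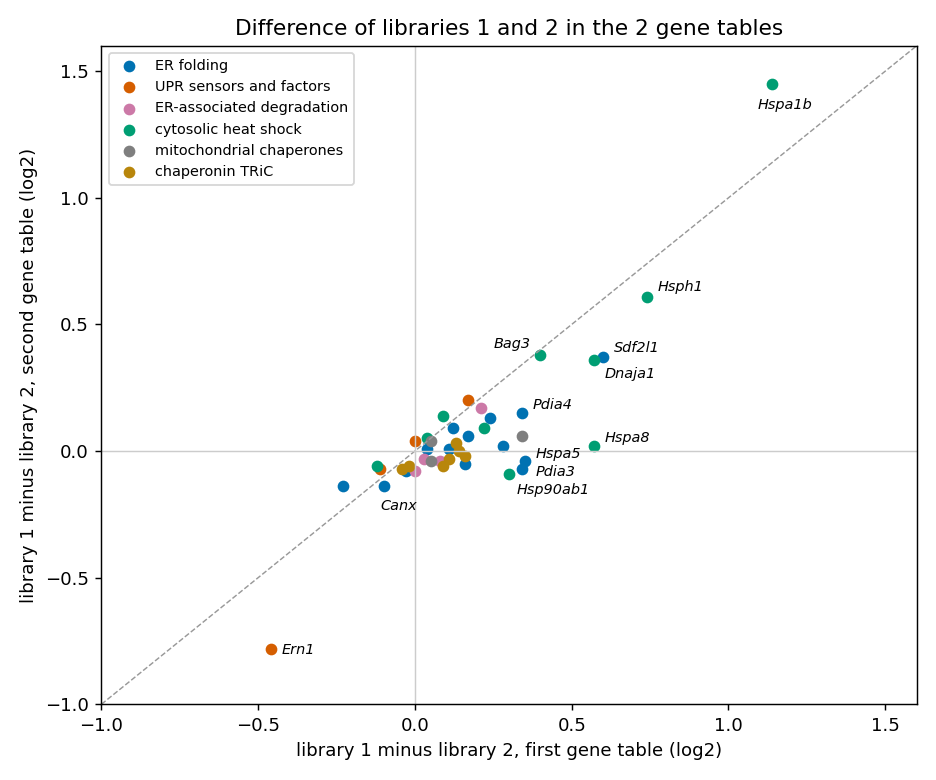
Difference of library 1 minus library 2 in log2 for 42 genes, from the first gene table (x axis) and the second (y axis), coloured by role group, with the line of equality dashed. Hspa1b, Hsph1, Bag3, Sdf2l1 and Dnaja1 lie above 0 on both axes, while Hspa8, Hspa5, Pdia3 and Hsp90ab1 lie to the right of 0 and near 0 on the y axis.

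Library 3 was at least 2-fold below the mean of libraries 1 and 2 for 9 of 43 genes (20.9%), beside 13.1% of tested genes, and at least 2-fold above it for none, beside 2.33%. Library 3 was already known to stand apart when these genes were chosen, so this is a description. The 9 were Creld2, 4.06-fold lower, Xbp1, 3.97-fold, Pdia3, 3.55-fold, Sdf2l1, 3.27-fold, Sel1l, 2.92-fold, Hsf1, 2.90-fold, Dnajc3, 2.44-fold, Hspa4, 2.19-fold, and P4hb, 2.03-fold. Just outside the limit were Hsph1 at 1.90-fold and Hspa9 at 1.91-fold. The median deviation was -0.68 in log2 in ER-associated degradation, -0.49 in ER folding and -0.25 in the sensors and factors, while TRiC stood at 0.12 and mitochondrial chaperones at 0.10, against 0.02 over all tested genes.

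Local GC content, taken as the richest 200-base window of a gene's most abundant transcript, in percent GC, moves with the deviation of library 3 over all genes. It was 70.0 to 78.0% in the 9 genes, and 52.5 to 69.0% in all TRiC subunits. With the trend removed, 6 of 43 genes (14.0%) were still at least 2-fold lower beside 6.1% of tested genes. They were Creld2 at 2.57-fold, Xbp1 at 2.26-fold, Sdf2l1 at 2.17-fold, Hsf1 at 2.12-fold, Pdia3 at 2.06-fold and Sel1l at 2.03-fold. On the other side, Hspe1 went from 0.25 to 1.03 in log2, which is over 2-fold above, and Canx from 0.04 to 0.64. The median over the 43 genes went from -0.19 to 0.05. In the second table Pdia3 was lower in library 3 by -0.54 in log2, against -1.83 in the first, whereas Creld2 at -2.05 and Xbp1 at -1.94 were nearly as in the first. High local GC did not go with a low library 3 in every gene, since Hspd1 with 81.0% was at 0.10 and Canx with 71.0% at 0.04, while Manf with 53.5% was at -0.80.

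**Figure D4:**
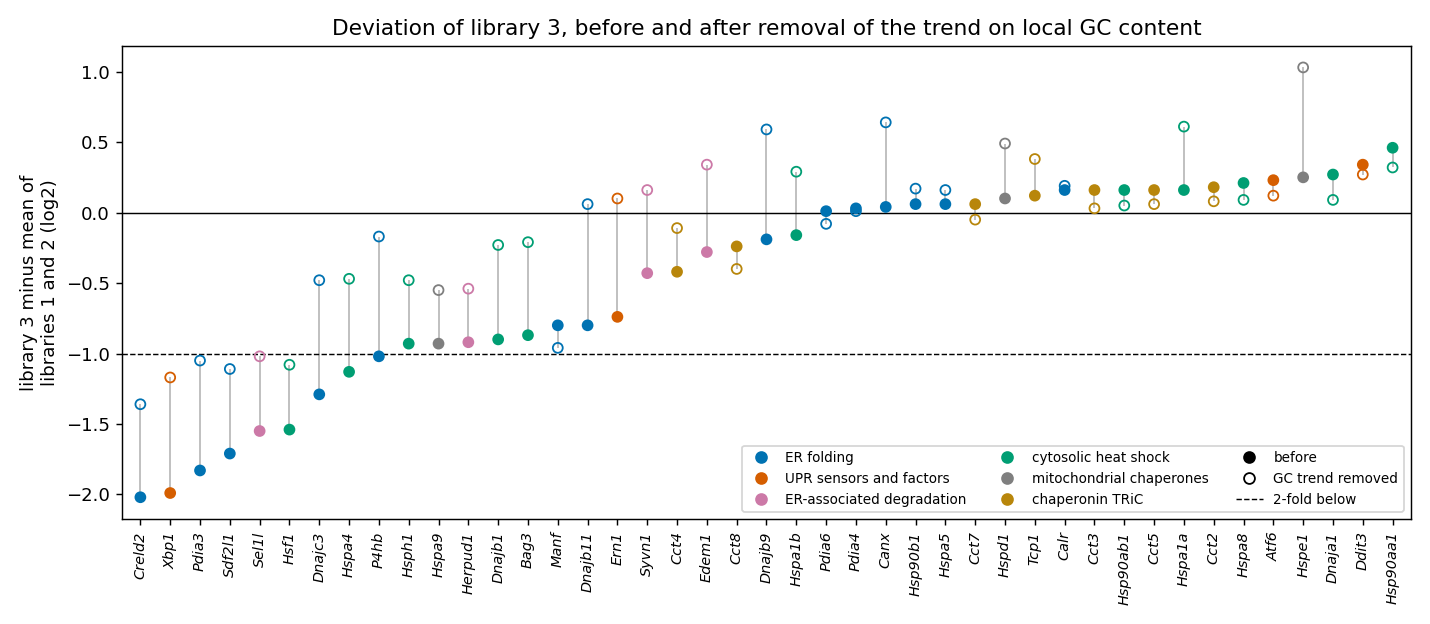
Library 3 minus the mean of libraries 1 and 2 in log2 for each of the 43 genes, as counted (filled) and after removal of the trend on local GC content (open), coloured by role group, with 2-fold below as a dashed line. Creld2, Xbp1, Pdia3, Sdf2l1, Sel1l and Hsf1 stay below the dashed line on both scales, and TRiC subunits lie between -0.42 and 0.18 before removal.

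Other genes of these pathways were read from lists of 141 names, of which 137 matched a gene and 123 were detected. Of the 126 tested, 105 differed between libraries (83.3%), beside 63.9% of all tested genes. Library 3 was at least 2-fold below for 22 (17.5%), beside 13.1%, and above for none, beside 2.33%. In library 1, 39 were higher than in library 2 (31.0%), beside 16.5%, and 12 were lower (9.52%), beside 13.7%. Among other ER folding genes, 27 of 30 were detected. Ppib, a prolyl isomerase, was highest at 306 ± 22.1 TPM, with Selenok, a selenoprotein of the ER membrane, next at 220 ± 20.9 TPM. Serp1, which protects unfolded membrane proteins, and Ero1l, the oxidase that recharges disulfide isomerases, had the largest range, with Serp1 at 83.1, 67.8 and 19.6 TPM and Ero1l at 15.4, 15.2 and 4.15 TPM. Fkbp11, Pdia5 and Clgn were under 1 TPM in each library. In the unfolded protein response list, 17 of 19 were detected, led by Eif2s1, the translation factor that Eif2ak3 phosphorylates, at 182 ± 4.97 TPM and Tmbim6, a suppressor of cell death in the ER, at 144 ± 20.9 TPM. Atf5 and Chac1, targets of that branch, were at 0.23 ± 0.08 and 0.12 ± 0.02 TPM. Ppp1r15b, which reverses the phosphorylation, was at 51.2, 45.1 and 18.8 TPM, and Creb3l2, a membrane-bound factor, at 8.19, 6.95 and 3.14 TPM. Both were lowest in library 3.

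In the degradation list 19 of 20 were detected, with Vcp, the ATPase that pulls proteins from the ER, at 381, 319 and 241 TPM and the lectin Os9 at 190, 161 and 168 TPM. The channel protein Derl1 was at 79.6, 66.7 and 19.2 TPM and the Vcp cofactor Nploc4 at 11.2, 10.8 and 4.63 TPM. Sel1l3 was under 1 TPM. Of 40 other cytosolic chaperone genes 33 were detected. Dnajc7, a co-chaperone of Hsp70 and Hsp90, was at 567 ± 16.8 TPM and Naca, which binds nascent chains, at 413, 469 and 599 TPM. The ubiquitin ligase Stub1 (CHIP), which acts on Hsp70 clients, was at 101, 99.7 and 23.0 TPM and Fkbp4, a co-chaperone of Hsp90, at 39.3 ± 21.2 TPM on average. Both were lowest in library 3. Hspb8 was listed at 0 in each library. Of the other prefoldin and TRiC genes 10 of 11 were detected, and none was 2-fold lower in library 3. The prefoldin subunits Pfdn5 and Vbp1 were at 425, 515 and 588 TPM and at 117, 96.4 and 146 TPM, and Cct6b was under 1 TPM. All 17 mitochondrial proteostasis genes were detected, with Dnajc19 at 105 ± 17.6 TPM and the protease subunit Clpp at 77.1 ± 2.05 TPM. The protease Lonp1 was at 10.4, 10.3 and 3.75 TPM and the unfoldase Clpx at 48.5, 45.3 and 19.7 TPM, both lowest in library 3.

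The cell label was checked against marker genes. All 6 T cell markers and all 6 of the regulatory T cell core were detected, with Trac at 2860, 2772 and 3168 TPM and Foxp3 at 77.6, 86.2 and 59.2 TPM. Plasma cells carry very high levels of ER chaperones, and in bulk RNA fewer cells of a type and less RNA per cell cannot be told apart. Of 10 plasma cell markers 5 were detected, the summed level was 69.4, 152 and 54.5 TPM, and Igha alone was at 3.77, 92.8 and 1.62 TPM. The peak of the sum in library 2 came with Igha. Among the others, Prdm1 was at 30.7, 18.9 and 13.0 TPM and Irf4 at 22.4, 20.2 and 22.9 TPM. Jchain was at 9.54, 15.0 and 10.5 TPM and Mzb1 at 0, 1.16 and 3.03 TPM, so these markers had no common order. The summed ER folding level was 2830, 2370 and 2056 TPM in libraries 1, 2 and 3. Sdc1, Tnfrsf17 and Ighg1, further plasma cell markers, were under 1 TPM in each library. B cell markers summed to 2294, 2002 and 2130 TPM, most of it Ighm, erythroid markers to 1389, 1097 and 1750 TPM and macrophage markers to 375, 334 and 394 TPM. Most of the macrophage sum was Ctss, at 332, 290 and 362 TPM. The other macrophage markers had no common order, with Lyz2 and Csf1r lowest in library 3. CD8 T cell markers summed to 16.7, 22.3 and 17.9 TPM and granulocyte markers to 0, 2.60 and 0 TPM. Immediate early genes, which are known to rise during cell handling, summed to 890, 816 and 371 TPM. Junb at 466, 392 and 89.4 TPM and Ier2 at 139, 147 and 31.3 TPM were lowest in library 3, while Zfp36 at 184, 182 and 171 TPM and Nr4a1 at 78.2, 71.8 and 71.8 TPM were much the same in all. The part of these cells and signals in the differences above was not tested.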

How the data were processed

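The labels give 3 libraries of 1 biological replicate, numbered as technical replicates, and these were the only group. Members, role groups, pairs and lists were chosen with earlier results of these data known. The authors deposited for each library a gene table and a transcript table on mm10 and GENCODE M21, per the text files deposited beside them, with expected counts, TPM and FPKM. The transcript table holds each transcript's percent of its gene's TPM, per the file headers. The second gene table holds whole-number counts on GENCODE M4, per those text files, with 6339932, 5775622 and 5056487 counts in libraries 1, 2 and 3. Column names are those RSEM writes. No source used here gives the aligner, the counter, their versions or the use of strand. The deposited credible bounds of TPM, a signal column of assignment error, served only for the comparison with TPM given above, and the posterior SD was not used.

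Expected counts were rounded. Library sizes were scaled by TMM factors of edgeR 4.0.16 in R 4.3.3, or by DESeq2 1.42.0 as an alternative. A chi-square test with 2 degrees of freedom used genes whose mean count reached 10, with Benjamini-Hochberg adjustment over all of them and a threshold of 0.05. The quasi-likelihood test of edgeR needs a second group. Log2 differences are of scaled counts plus 0.5. The p-values measure only the spread between technical libraries. The test was run on simulated counts, which were Poisson draws with no spread beyond counting. These libraries did have such spread, so the behaviour of the test under it was not tested. The GC trend, on the richest 200-base window, was a lowess curve (statsmodels 0.14.6, fraction 0.3) over genes whose mean count reached 100. Shared windows are 50-base stretches of a gene's most abundant transcript found on either strand of another gene's. All 43 members could be named, and of other lists the highest 2, the 2 called with the largest range and those under 1 TPM. Comparison of libraries 1 and 2 by direction, the limit of 1000 counts and 2 of the motifs were added after the data were seen.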

Additional observations from a re-analysis of the deposited data

How the results depend on the processing

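No paired analysis was possible because all libraries belong to 1 group. The 43 members that differed between libraries became 38 to 43 under other scalings, filters, a threshold of 0.01, the second gene table and removal of the GC trend, and 27 to 42 with 1 library left out. For the other pathway genes the 105 calls became 51 to 94 with 1 library left out. The median deviation of library 3 over the members, -0.19, stayed between -0.20 and -0.10 under the scalings, filters, TPM and the second table, turned to 0.05 with the GC trend removed, and was -0.19 without library 1 and -0.30 without library 2. Without library 3 it has no value. The 9 members with library 3 at least 2-fold lower became 6 to 12. The 25 members higher in library 1 became 6 in the second gene table and 24 or 25 elsewhere. The 2 members lower in library 1 became 1 with no filter, at a threshold of 0.01 and in the second table. In that table the difference of libraries 1 and 2 turned to -0.04 for Hspa5, -0.05 for Calr, -0.07 for Pdia3, -0.09 for Hsp90ab1, -0.02 for Cct5, -0.03 for Cct7 and -0.06 for Cct8. Its pair ratios turned to -2.80 for Hspa8 over Hspa5, -1.81 for Hspa8 over Hspa9, -0.24 for Hspa8 over Hspa4, -0.11 for Calr over Canx and -1.57 for Dnaja1 over Dnajb1. The cause of these turns was not tested. The 17 pairs called became 12 to 19, and the members detected 41 to 43. Xbp1-201 held 92.1% of expected counts against 84.2% of TPM, and 82.6 to 86.1% of TPM with 1 library left out. Role group medians moved by less than the spread between libraries under FPKM and TPM over nuclear protein-coding genes. Of 436 alternatives for single members and pairs, 390 kept direction and call, 29 lost the call, 5 gained it and 12 turned. Ern1 and Hspa1a, with 72 and 36 counts in their lowest library, are limited by depth.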
